A study of Mus musculus with 4 samples.

Results

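Neurod1-high differentiating granule cells are cells of the granule neuron lineage of the cerebellum that have left the cell cycle, no longer carry Atoh1 transcripts and hold abundant Neurod1 transcripts. They were chosen by transcript counts in single cells. A member had at least 3 unique molecular identifiers (UMIs, each standing for 1 captured transcript) of Neurod1, at least 1 of Pax6, none of Atoh1 or Eomes, no more of Meis2 than of Pax6, and at most 1 UMI in all of the 6 cycling genes Mki67, Top2a, Cenpf, Ube2c, Cdk1 and Birc5. The rule took 496 of 12546 kept cells, those with 500 or more genes, 1000 or more UMIs and no more than 10% mitochondrial UMIs. By library these were 153 of 2911 cells and 81 of 3931 cells in control replicates 1 and 2, and 60 of 2007 and 202 of 3697 in En1/2 CKO replicates 1 and 2.

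The cells came from mouse cerebella at E14.5 (embryonic day), sorted for the red reporter tdTomato and profiled with droplet-based 10x Genomics chemistry that reads the 3′ ends of transcripts. Controls carried Atoh1-Cre/+ and R26LSL-tdT/+. The En1/2 conditional knockouts (CKO) carried these 2 alleles together with En1lox/lox and En2lox/lox, so that Cre and the reporter are shared by both groups and the floxed alleles are not. Cre under Atoh1 control acts in cells that have expressed Atoh1 and in their progeny, and the sorted cells are those in which the reporter was recombined. Several animals were pooled in each library, with 2 libraries a group, and no label ties a library to a litter or a day. The p-values below therefore measure the spread between pooled libraries.

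Granule neurons arise from the rhombic lip. Their precursors express Atoh1 and proliferate in the external granule layer under Sonic hedgehog, which signals through Smo and the Gli factors. When a precursor leaves the cycle it loses Atoh1, gains Neurod1, a basic helix-loop-helix activator of neuronal differentiation, extends parallel fibre axons and later migrates inward. En1 and En2 are homeobox repressors that pattern the midbrain and cerebellum and are expressed in the rhombic lip lineage.

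The upstream sequences of the gene that names the cells and of the gene that leads their description are shown because both genes are compared below. Each is the 250 bases before the most upstream start in RefSeq, build GRCm38.p6, printed 5′ to 3′ on the gene's strand. For Neurod1 (chr2:79456637-79456886, minus strand) the capitals mark the E-box letters CANNTG, the kind of site basic helix-loop-helix factors bind. For Cdkn1a (chr17:29090729-29090978, plus strand) they mark ACATGT.
Neurod1: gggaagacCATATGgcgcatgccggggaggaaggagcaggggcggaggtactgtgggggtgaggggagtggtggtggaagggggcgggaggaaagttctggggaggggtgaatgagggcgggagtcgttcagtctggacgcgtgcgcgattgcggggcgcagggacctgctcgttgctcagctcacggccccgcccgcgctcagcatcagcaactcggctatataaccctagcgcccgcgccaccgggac
Cdkn1a: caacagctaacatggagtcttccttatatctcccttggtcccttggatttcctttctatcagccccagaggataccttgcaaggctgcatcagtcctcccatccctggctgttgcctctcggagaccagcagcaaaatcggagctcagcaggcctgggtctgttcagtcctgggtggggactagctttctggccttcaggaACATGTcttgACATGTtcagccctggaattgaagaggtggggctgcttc

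The first search, for the E-box CAGATG or its complement CATCTG or the palindrome CAGCTG, found no match in the windows of Neurod1, Cdkn1a and Gng3. At least 1 of these spellings stood in 5 of the 20 leading genes with a promoter entry (25%) and in 25.3% of all 27025 promoters. The looser CANNTG, which covers them, reads the same on both strands, as ACATGT does. It stood in 66.1% of all promoters and in 11 of the 20. The CANNTG and ACATGT searches were added after the first, with both sequences already read. The 2 ACATGT matches of Cdkn1a lie 4 bases apart, and 0.278% of all promoters held 2 or more. A match is a spelling and not a measured site.

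The libraries differed in depth before any gene was compared. They held 14998150 to 33709450 UMIs in all. Median UMIs per member were 3423 and 3179 in the control libraries and 6380 and 11374 in the CKO libraries, so the CKO members were read more deeply. Mitochondrial transcripts were 4.87% and 4.43% of the members' UMIs in the controls against 3.03% and 1.99% in the CKO libraries. Ribosomal protein transcripts were 8.89% and 9.35% against 12.03% and 16.6%, and Malat1, a nuclear RNA, 5.18% and 5.59% against 1.92% and 2.75%. None of these 3 measures overlapped between genotypes. Xist, which female cells express, stood at 3.04 and 1625 CPM (UMIs per 1000000 UMIs) in members of the control libraries. In the CKO libraries it had 1192 and 214 CPM. The mix of sexes in the pools thus differed between libraries, most between the controls. Between any 2 libraries 7 to 17 barcodes were shared, of which 1 to 6 were among kept cells and 0 among members. The part of depth, quality, sex and shared barcodes in the genotype results below was not tested.

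Neurod1, Pax6 and the absence of Atoh1 in the members are what the rule used and are given as description. Summed over the members of a library, Neurod1 stood at 1412, 1253, 909 and 1071 UMIs per 1000000 UMIs of the summed cells (CPM) in control replicates 1 and 2 and CKO replicates 1 and 2. Per cell, the median was 4, 4, 6 and 9.5 Neurod1 UMIs in the same order, and the highest was 43. The CKO members thus had more Neurod1 UMIs per cell but fewer per UMI read, beside their greater depth. At the edge of the rule, 135 members held exactly 3 Neurod1 UMIs, while 264 further cells met all other criteria with 2. An Atoh1 UMI was the single miss of 280 cells and Eomes UMIs that of 233 cells. Atoh1 alone shut out 41 of 194 otherwise qualifying cells from control replicate 1 and 8 of 89 from control replicate 2. From CKO replicate 1 it shut out 54 of 114, and from CKO replicate 2 it shut out 177 of 379. The criterion thus fell harder on the more deeply read CKO libraries. An alternative below chose members after thinning to 2000 UMIs. The part of the Atoh1 criterion in the genotype results was otherwise not tested.

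The name of the cells was set beside marker lists. Every one of the 4 other genes that mark differentiating granule cells (Cdkn1a, Gap43, Mafa and Gng3) was higher in members than in the remaining kept cells in all 4 libraries. Among 9068 genes at 10 CPM or more, 15.4% were higher in members in all 4 libraries and 19.9% were lower in all 4. Since the members were selected on transcript counts of these same cells, the comparison with the remaining cells carries no test. The 4 genes were also listed with earlier results of these data known, so their excess is no independent check of the name. Markers of other types were read in the same way. Those of excitatory cerebellar nuclei neurons summed to 236 to 497 CPM in members against 3006 to 3781 CPM in Meis2-high neurons. The sum includes Meis2, by which both classes were selected, at 40.4 to 116 CPM in members and 1754 to 2199 CPM in Meis2-high neurons. That part of the gap was fixed by the selection. Of the 8 other genes 4 were lower than in the remaining cells in all 4 libraries, none higher. Gad1, Slc32a1, Ptf1a and Skor2, which define GABAergic cells, had no UMI in any library of members. Lhx1, the 1 gene of 9 on that list at 10 CPM or more, was however higher in members in all 4 libraries, with a median ratio of 1.59. The list summed to 82.0 and 64.0 CPM in members of the control libraries and 20.7 and 34.0 CPM in those of the CKO libraries. The remaining cells had 71.2, 98.9, 32.2 and 31.1 CPM in the same order, so the summed list did not set the members apart. The list of neural progenitors and glia was not low. It summed to 996, 724, 1413 and 1187 CPM in members, against 1134, 581, 1635 and 1246 CPM in the remaining cells, with both CKO libraries above both controls. Most of it was Vim, an intermediate filament gene, at 776, 619, 1308 and 1052 CPM, while Sox2, a factor of neural progenitors, was at 6.07, 0, 3.18 and 8.73 CPM. Of its 7 expressed genes 4 were lower in members in all 4 libraries and 1, Pdgfra, was higher, with a median ratio of 0.560. The part of these 2 lists in the differences between genotypes was not tested. Summed markers of microglia, endothelium, meninges and choroid plexus were each below 3 CPM in every library. Erythroid transcripts stood at 44.0, 529, 15.9 and 2.30 CPM, so control replicate 2 carried more of them than the other libraries. Not every list set the members apart. Of 7 expressed granule lineage genes outside the rule 4 were higher in all 4 libraries and 0 lower, with a median ratio of 1.19. Of 4 expressed unipolar brush cell genes 0 were higher and 0 lower, with a median ratio of 0.969. Cntn2, on the granule lineage list, had medians of 350 CPM in members, 384 CPM in the remaining cells and 1160 CPM in Meis2-high neurons. The label of differentiating granule cells thus rests on the rule and on Cdkn1a, Gap43, Mafa and Gng3. As a limit, Gabra6, a marker of mature granule cells, had no UMI in 496 members. With all members pooled as independent cells, that allows a share with a UMI of up to 0.605%. The bound covers counting error only and not the spread between libraries. A single library, with 60 to 202 members, allows a larger share.

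Cdkn1a, which encodes the cyclin-dependent kinase inhibitor p21, was the gene with the largest excess common to all libraries. It stood at 86.5, 78.5, 111 and 74.9 CPM in members, with a median of 18.6 CPM in the remaining kept cells. The ratio ranged from 3.88 to 6.26 across libraries. All 4 libraries of members therefore lay above all 4 libraries of precursors (median 11.3 CPM) and of Meis2-high neurons (median 7.58 CPM), as the plot of levels by cell class shows. Precursors are here cells with Atoh1 and Pax6 but no Eomes UMI and no more Meis2 than Pax6, and Meis2-high neurons are noncycling cells with at least 2 Meis2 UMIs and more Meis2 than Pax6. Cdkn1a was detected in few cells: 31 of 153, 11 of 81, 21 of 60 and 66 of 202 members had a UMI. After every cell was thinned to 2000 UMIs and shallower cells were left out (135, 65, 56 and 193 members stayed), the share was 12.6%, 9.23%, 12.5% and 12.4%, against 0% to 2.49% in Meis2-high neurons and 0.862% to 2.79% in precursors. At equal depth the share of members with Cdkn1a thus hardly varied between libraries.

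**Figure D1:**
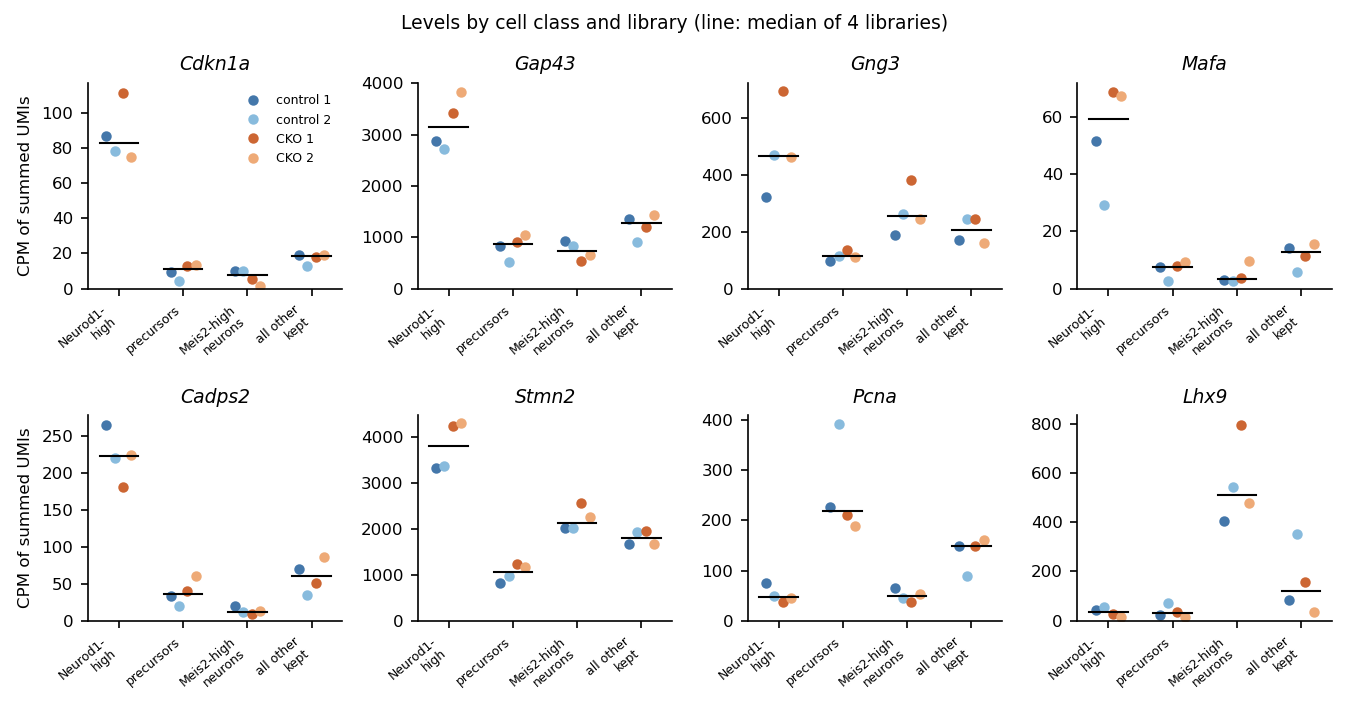
CPM (vertical axes) of 8 genes in Neurod1-high cells, precursors, Meis2-high neurons and all other kept cells, with 1 point per library and a line at the median of the 4 libraries. Cdkn1a, Gap43, Mafa, Cadps2 and Stmn2 lie higher in Neurod1-high cells of each library than in any library of precursors or Meis2-high neurons, while Pcna and Lhx9 are low.

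Other inhibitors and exit genes did not share this excess. Cdkn1b, which encodes p27, had a median of 104 CPM in members and 91.7 CPM in the remaining cells, and its ratio ran from 0.82 to 1.34. Btg2, an antiproliferative gene, stood at 95.2 and 94.9 CPM. Of the 16 expressed genes of the cell cycle exit list, 3 were higher in all 4 libraries (Cdkn1a, Gadd45a and Ppp1r14c) and 4 were lower, among them the cyclin gene Ccnd1 at 59.2 against 156 CPM. The list of p53 targets, which also holds Cdkn1a, had 5 of 13 higher and 3 lower, with a median ratio of 1.10. Its member Mdm2, the p53 ubiquitin ligase, stood at 46.1 against 47.4 CPM. The excess of Cdkn1a in members was thus larger than that of the other genes named from either list.

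S phase transcripts moved together in the other direction. All 18 expressed genes of that list, none of which the rule used, were lower in members in all 4 libraries, with a median ratio of 0.270. The rule kept out cycling cells, so a low level was largely set by the selection. Nor was it particular to the members: the list summed to a median of 407 CPM in members and 442 CPM in Meis2-high neurons. Of 8 expressed hedgehog pathway genes 5 were lower in all 4 libraries and 1 was higher, with a median ratio of 0.668. The higher one was Sufu, a negative regulator of the Gli factors, at 27.2 against 22.6 CPM with ratios from 1.09 to 1.40. Smo, the signal transducer, stood at 46.1 against 77.8 CPM and the coreceptor gene Boc at 23.4 against 45.9 CPM. Ptch1, the receptor and a pathway target, stood at 54.8 against 56.0 CPM, with ratios on both sides of 1. Gli1, the usual readout of the pathway, had at most 0.92 CPM in any library of members and 0.65 CPM in the remaining cells. It was too sparse to compare. The hedgehog list summed to a median of 373.5 CPM in members, 278.9 CPM in Meis2-high neurons and 577.8 CPM in precursors. Its lower level was thus not particular to the members.

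Genes of the growth cone and neuronal cytoskeleton were the pathway list with the largest share of raised genes. Of 30 genes, 23 were higher in all 4 libraries and 0 were lower, with a median ratio of 1.66. Gap43, a growth cone phosphoprotein, stood at 2881, 2709, 3422 and 3838 CPM against a median of 1280 CPM in the remaining cells. Stmn2, a tubulin-binding protein of growing axons, stood at 3316, 3363, 4225 and 4293 CPM against 1805 CPM. Both genes exceeded the level of Meis2-high neurons, which are also postmitotic, in every library. Tubb3 and Map2 did not: their medians were 3149 and 689 CPM in members and 3378 and 1203 CPM in Meis2-high neurons.

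Transcription factors of the lineage showed an uneven pattern. Of 29 expressed factors that were not in the rule, 10 were higher in all 4 libraries and 4 were lower. Mafa, a leucine zipper factor, stood at 51.6, 29.1, 68.4 and 67.1 CPM, with a median of 12.8 CPM in the remaining cells. Nhlh1, a helix-loop-helix factor of newborn neurons, had 167 to 206 CPM against a median of 75.7 CPM. Barhl1, a homeobox gene already on in precursors, had 364 CPM in members and 486 CPM in precursors at the median, and its ratio to the remaining cells ranged from 0.81 to 1.26. Mafa and Nhlh1 were raised in each library, whereas Barhl1 was not.

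Among guidance molecules, 9 of 34 expressed genes were higher and 12 were lower in all 4 libraries. Cntn1, L1cam, Plxnb2, Sema6a, Cdh11 and Ntrk2 (the BDNF receptor TrkB) were on the higher side. Early cells met the rule but for a Tlx3 UMI and at most 2 Neurod1 UMIs (73 cells, 0 in CKO replicate 1). Their guidance list summed to a median of 9352 CPM, against 6715 CPM in members. Ntrk2 had 257 CPM in them against 250 CPM in members, while Cntn1 (103 against 108) and Sema6a (455 against 509) were slightly lower. The axon crossing receptor gene Robo3, the semaphorin receptor gene Nrp1, Robo1 and Cxcr4, the Cxcl12 receptor that holds precursors at the pia, were on the lower side. Sema6a, which acts in granule cell migration, had 509 CPM against 282 CPM, while Plxna2, which encodes a plexin that binds it, had 18.6 against 34.9 CPM. Robo3 had 45.8 CPM in members and 687 CPM in Meis2-high neurons. Of 27 synaptic and excitability genes, 13 were higher and 4 lower in all 4 libraries. That list summed to a median of 4777 CPM in members and 6143 CPM in early cells. Reln, which granule cells secrete, stood at 795 against 362 CPM, and Cplx2, a complexin, at 547 against 238 CPM. Slc17a7, the vesicular glutamate transporter VGLUT1 of mature granule cells, was present at 14.7 to 29.1 CPM in members. Its median was 5.48 CPM in the remaining cells.

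The leading genes beyond these lists include Cadps2, a priming factor of dense-core vesicles, at 266, 221, 181 and 225 CPM against a median of 60.7 CPM. Kcnk9, a potassium leak channel, stood at 247 and 163 CPM in the control libraries and 78.0 and 89.1 CPM in the CKO libraries. Cbln2, a secreted synaptic organizer, had 100 to 127 CPM against 32.2 CPM. In early cells the medians were 92.6 CPM for Cadps2, 140 CPM for Kcnk9 and 84.9 CPM for Cbln2. The medians in members were 223, 126 and 104 CPM in the same order. The septin gene Sept4 was also among the 25 genes with the largest excess. Pvalb, Fst, Nkd1 and Fzd10 were among the genes that were most reduced and do not belong to the cell cycle. Pvalb had 65.8 CPM against 373 CPM, and the follistatin gene Fst 21.9 CPM against 147 CPM. The low level was not particular to the members for Pvalb, Fst and Nkd1. Their medians in Meis2-high neurons were 65.6, 23.7 and 69.8 CPM, with Nkd1 at 70.0 CPM in members. Precursors, which the rule kept out by Atoh1, had 601, 256 and 430 CPM. Fzd10 had 30.2 CPM in members and 80.1 CPM in Meis2-high neurons.

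Levels also varied among the cells with their Neurod1 count. To compare at 1 depth, each cell was thinned to 4000 UMIs. The cells whose thinned counts met all criteria but the Neurod1 threshold were grouped by Neurod1 UMIs. Cells with Atoh1, Eomes or cycling UMIs at full depth could thus enter. CKO replicates 1 and 2 had 76 and 237 grouped cells at 3 or more Neurod1 UMIs, against 60 and 202 members. There were 295 cells at 0, 340 at 1 to 2, 212 at 3 to 4, 102 at 5 to 6 and 111 at 7 or more. Mean Cdkn1a over libraries was 19.2, 28.4, 74.0, 84.1 and 108 CPM in that order. Gap43 ran from 1226 to 3704 CPM, Stmn2 from 2029 to 4728 CPM and Mafa from 14.48 to 87.9 CPM. These means rose at each step, and for Gap43, Cdkn1a, Stmn2 and Mafa the cells at 7 or more lay above the cells at 0 in each of the 4 libraries.

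Other genes fell or stayed level along the same axis. Ccnd1 fell from 175 to 17.4 CPM, Pcna, the DNA polymerase clamp, from 113 to 26.6 CPM, and Lhx9, a factor of cerebellar nuclei neurons, from 108 to 18.3 CPM. For these genes the cells at 7 or more lay below the cells at 0 in each of the 4 libraries. For Lhx9 the fall was small in CKO replicate 1, from 50 to 45.5 CPM. Its mean at 0 was raised by control replicate 2, at 237.5 CPM from 20 cells. Cntn2, which encodes the adhesion molecule TAG-1 of newly postmitotic granule cells, was at 454 CPM in cells at 0 and 270 CPM in cells at 7 or more. Unc5c, a netrin receptor, ranged only from 458 to 512 CPM, and Dcc from 367 to 454 CPM. The change with Neurod1 therefore did not extend to every gene of axon guidance. Some groups were small, with 4 cells of control replicate 2 at 5 to 6 Neurod1 UMIs, and no test was made because Neurod1 is part of the rule.

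**Figure D2:**
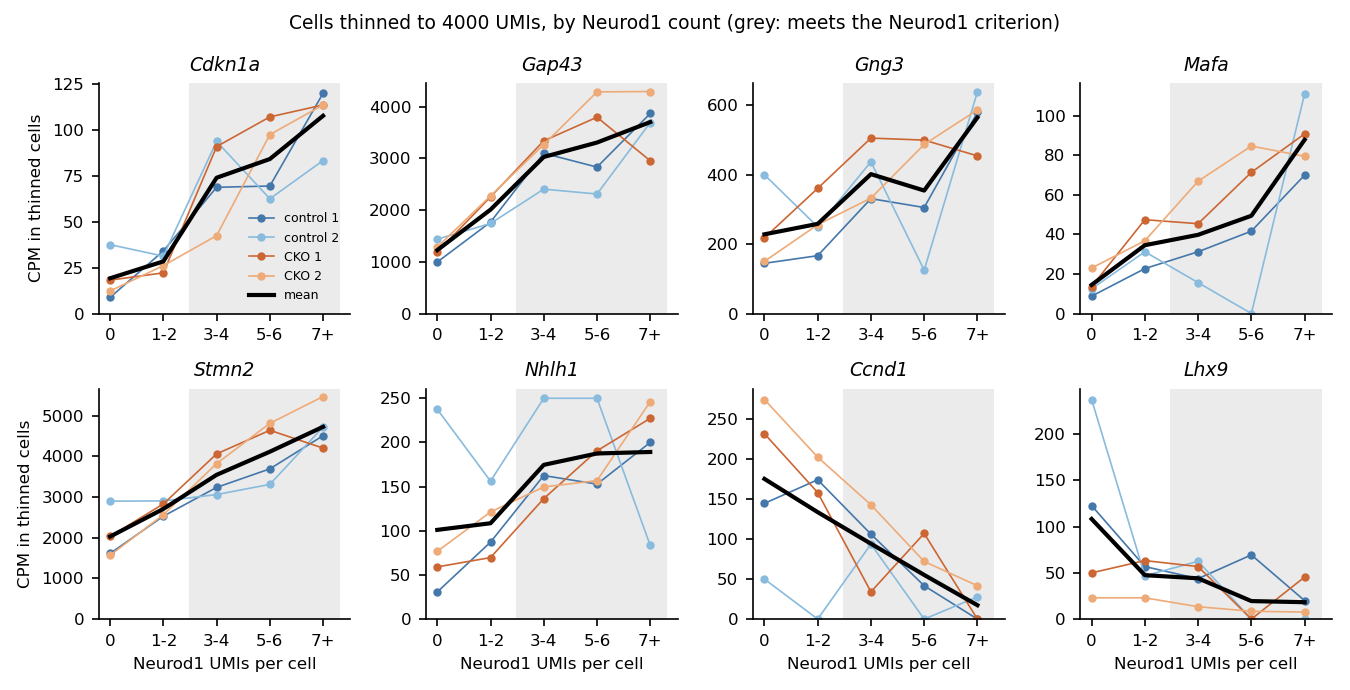
CPM (vertical axes) of 8 genes in cells thinned to 4000 UMIs, grouped by Neurod1 UMIs per cell (horizontal axes), with 1 thin line per library and a thick line for their mean. The other criteria were applied to the thinned counts. Mean Cdkn1a increases from 19.2 to 108 CPM and mean Ccnd1 decreases from 175 to 17.4 CPM.

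The share of these cells among all kept cells did not separate the genotypes. It was 5.26% and 2.06% in the control libraries and 2.99% and 5.46% in the CKO libraries (means 3.66% ± 2.26 and 4.23% ± 1.75, SD, n = 2 each). The 2 groups overlapped, and an exact two-sided permutation test of the 4 shares gave p = 0.667, where the smallest p it allows is 0.333. The direction was not stable: the difference of 0.568 percentage points turned to -0.136 after thinning to 2000 UMIs and to -1.03 without control replicate 2. Without control replicate 1 it was 2.17 points. The 95% Wilson intervals in the plot of shares cover counting error only. By them each of the 2 libraries with the higher share of all kept cells lay apart from both others.

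The share among granule lineage cells had another order. Granule lineage cells were the sum of precursors, members, and early cells that lacked Atoh1 and held a Tlx3 UMI with at most 2 Neurod1 UMIs. Members were 22.2% and 33.6% of them in the control libraries and 10.4% and 14.1% in the CKO libraries, so the groups did not overlap (27.9% ± 8.06 against 12.3% ± 2.65, SD, n = 2 each). The exact two-sided permutation p was 0.333, the smallest possible. With each cell thinned to 2000 UMIs the shares were 33.0% and 40% against 18.0% and 23.3%, again apart. The denominator followed the number of precursors, which were 494 and 150 cells in the control libraries and 517 and 1205 in the CKO libraries. Precursors had median depths of 5925 and 3432 UMIs in the control libraries and 16401 and 12496 UMIs in the CKO libraries, and a single Atoh1 UMI moved a cell from 1 class to the other.

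**Figure D3:**
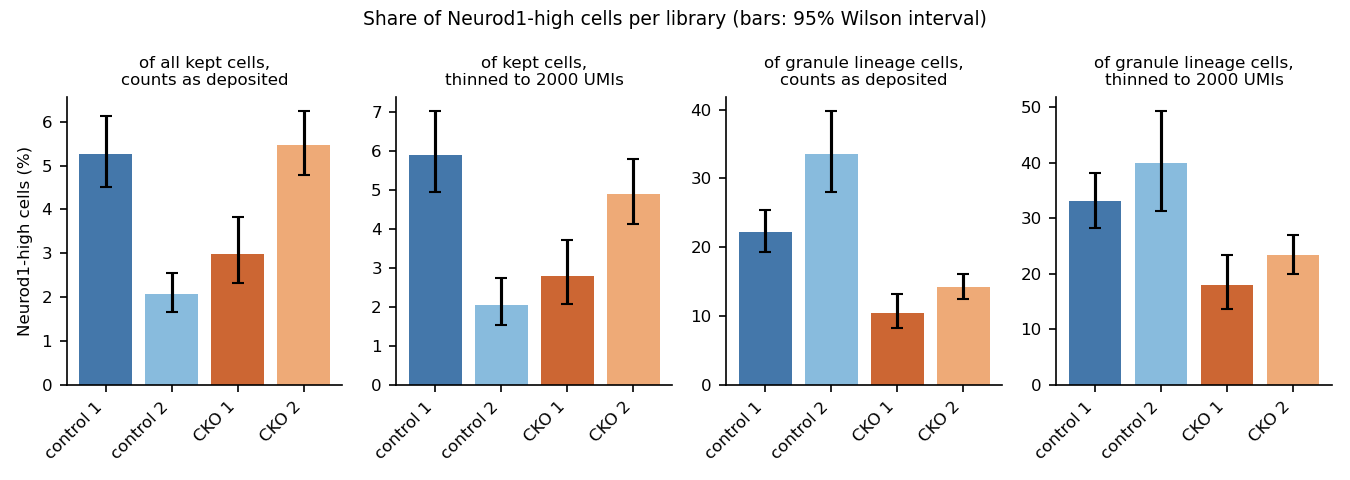
Neurod1-high cells as a percentage (vertical axes) of all kept cells and of granule lineage cells, per library, before and after thinning to 2000 UMIs; bars give the share and whiskers its 95% Wilson interval. The controls and CKO libraries overlap as shares of all kept cells and lie apart as shares of granule lineage cells.

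Gene expression in the members was compared between genotypes on counts summed per library, to see what the cells look like when En1 and En2 are deleted. Summed counts were 658851 and 344007 UMIs in the control libraries and 628330 and 2176803 in the CKO libraries. En2, 1 of the targeted genes (chr5:28165694-28172166), was read first. It had 65 and 36 UMIs in the control libraries and 8 and 29 in the deeper CKO libraries, or 97.1 and 108 CPM against 13.2 and 14.4 CPM after TMM scaling. The fall was 2.84 on the log2 scale (SE 0.29, edgeR adjusted p = 0.0120), and both CKO libraries lay far below both controls. En1 (chr1:120602418-120607992) stood at 294 and 314 CPM in the control libraries and 179 and 283 CPM in the CKO libraries. Its log2 difference of -0.37 did not pass the test (SE 0.25, edgeR adjusted p = 0.539). Which part of En1 was floxed is not given in the sources used here, so the 3′ counts of En1 do not check its deletion.

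S100a10 (chr3:93555080-93564643), which encodes a partner of annexin A2, was the gene that rose. Its counts were 14 and 5 UMIs in the control libraries and 80 and 213 in the CKO libraries, or 20.9 and 15.0 CPM against 132 and 105 CPM. The log2 change was 2.63 (SE 0.32, edgeR adjusted p = 0.0382), with no overlap of the groups. At equal depth both CKO libraries also lay above both controls in each of the 5 Neurod1 groups: cells at 3 to 4 Neurod1 UMIs had 18.8 and 31.3 CPM in the control libraries and 96.6 and 93.8 CPM in the CKO libraries. Among intact cells (4000 or more UMIs, no more than 5% mitochondrial) the call was lost, at a log2 change of 1.79 (edgeR adjusted p = 0.171). In precursors the S100a10 change was 2.30 on the log2 scale (edgeR adjusted p = 0.172), and the difference between the classes was 0.53 (SE 0.50, edgeR adjusted p = 0.896).

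En2 and S100a10 were the only 2 of 7764 genes that passed, 0.0258% of those tested. That is 0.0129% higher and 0.0129% lower, while 1095 genes had an unadjusted p under 0.05. Both calls were lost without control replicate 2 (edgeR adjusted p = 0.175 and 0.193), which left 0 genes, and with a replicate block (adjusted p = 0.0845 for both). The number of calls was 13 without control replicate 1, 301 without CKO replicate 1 and 148 without CKO replicate 2. DESeq2 called 125 genes and gave neither En2 nor S100a10 an adjusted p. The number of genes that differ between the genotypes is therefore not fixed by these data.

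The long noncoding RNA gene 2610027F03Rik (chr1:120621740-120690403), downstream of En1 on the same strand, had 3 UMIs in each control and 36 and 78 UMIs in the CKO libraries. That is 4.48 and 8.98 CPM against 59.5 and 38.6 CPM. Its log2 difference was 2.92 (SE 0.51) and missed the threshold (edgeR adjusted p = 0.101). Grin2b, an NMDA receptor subunit gene, had 65.7 and 44.9 CPM in the control libraries and 14.9 and 11.9 CPM in the CKO libraries. Its log2 difference of -2.16 had the same adjusted p (SE 0.35, edgeR). In both genes the groups lay apart, and the call depended on the setting. Both were called without the filter on low counts (edgeR adjusted p = 3.16e-06 and 2.93e-05), when CKO replicate 1 was left out (0.000251 and 3.67e-06) and when CKO replicate 2 was (1.48e-05 and 0.0107). So they were in a fit added after seeing the data that blocked each control with the CKO library of the other number (0.0278 and 0.0283). 2610027F03Rik was also called with members chosen after thinning (0.0120) and with at least 5 Neurod1 UMIs (0.0195, log2 difference 7.91). In that last setting each control held no more than the 3 UMIs given above. The size of the difference of 7.91 is therefore poorly determined.

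**Figure D4:**
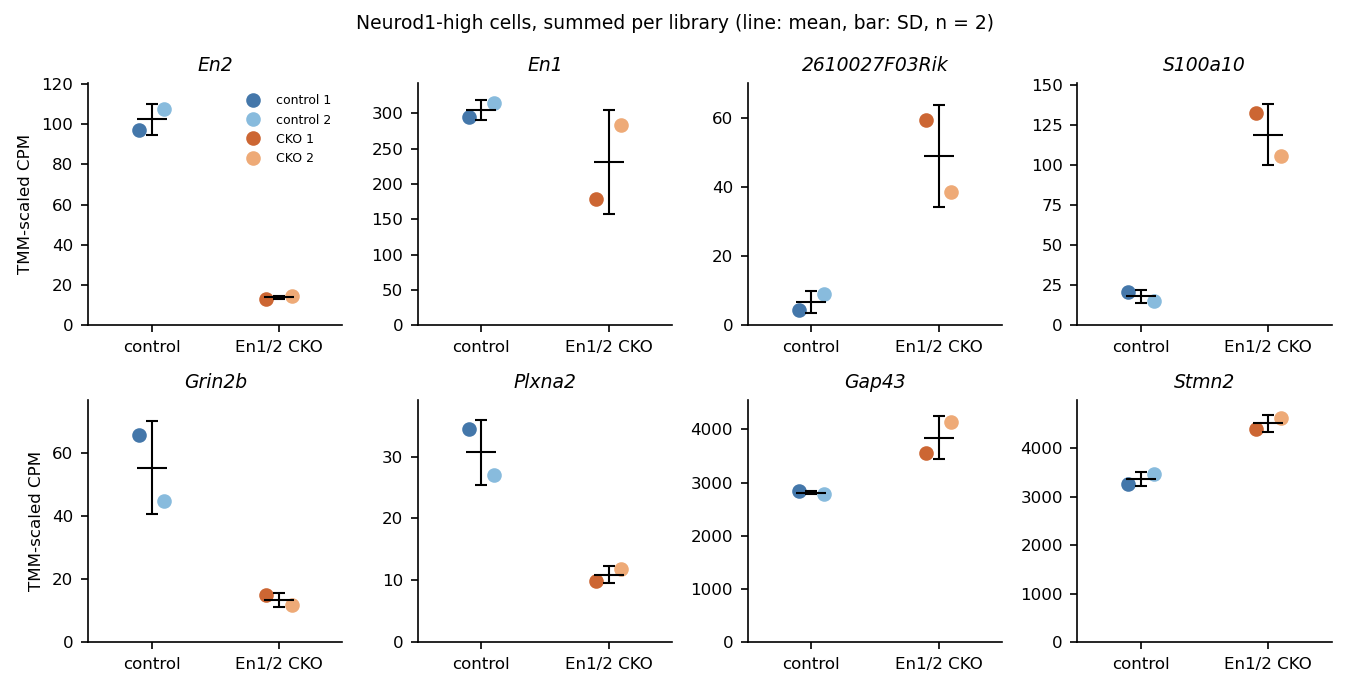
TMM-scaled CPM (vertical axes) of 8 genes in Neurod1-high cells of control and En1/2 CKO libraries, with 1 point per library, a line at the mean and a bar of 1 SD (n = 2). En2 and S100a10 passed the test; for the other 6 genes the groups lie apart but the adjusted p was above 0.05.

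Genes that mark the cells gave no call. Cdkn1a stood at 85.2 and 80.8 CPM in the control libraries and 116 and 80.7 CPM in the CKO libraries, so the groups overlapped. Gap43 (log2 difference 0.45, SE 0.24), Gng3 (0.61, SE 0.28), Stmn2 (0.42, SE 0.24) and Mafa (0.75, SE 0.30) were higher in both CKO libraries, with edgeR adjusted p-values from 0.310 to 0.450. Restricted to cells with 2000 to 6000 UMIs, Gap43, Gng3 and Stmn2 turned to -0.10, -0.14 and -0.11. Nhlh1, Zic1, Zic2 and Tlx3 overlapped between the groups. Ccnd1 had 52.3 and 21.0 CPM in the control libraries and 67.8 and 122 CPM in the CKO libraries, and its log2 difference of 1.30 was not called (SE 0.40, edgeR adjusted p = 0.231). That value rested on single libraries, since leaving out control replicate 1 gave 2.26 and leaving out the second CKO library gave 0.76. Ccnd1 was called without CKO replicate 1 (log2 difference 1.62, edgeR adjusted p = 0.000346) and without the filter on low counts (0.00311).

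The gene lists were then described by how many genes had both CKO libraries on 1 side of both controls. Over all genes tested 22.1% were higher and 23.9% lower by this count, and the median log2 difference was -0.03. Of 25 synaptic and excitability genes 0 were higher and 14 lower, with a median of -0.50. Gria2, an AMPA receptor subunit gene, had 2343 and 1671 CPM in the control libraries and 868 and 1237 CPM in the CKO libraries. The calcium channel gene Cacna1a had 79.2 and 83.8 CPM against 38.0 and 43.1 CPM. No gene of the list was called. The difference in Malat1, mitochondrial and ribosomal protein shares given above moved with it.

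Of 31 guidance genes 4 were higher and 19 lower, with a median of -0.43, and none was called. Plxna2 stood at 34.4 and 26.9 CPM against 9.92 and 11.9 CPM, and Unc5c at 659 and 620 CPM against 461 and 442 CPM. Astn1, a neuronal protein of glia-guided migration, stood at 68.7 and 56.9 CPM against 39.7 and 28.7 CPM, and was called only without CKO replicate 1 among the alternatives run (edgeR adjusted p = 0.0217). Unc5c turned to 0.25 on the log2 scale in cells with 2000 to 6000 UMIs. By contrast, the growth cone list had 8 of 30 higher and 3 lower with a median of 0.00, and lineage transcription factors had 9 of 25 higher and 6 lower with a median of 0.11. Markers of excitatory cerebellar nuclei neurons had 0 of 5 higher and 3 lower with a median of -0.90. The summed level of these markers, with Meis2 of the rule included, was 373 and 497 CPM in the control libraries and 269 and 236 CPM in the CKO libraries. Its part in the other lists was not tested.

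The remaining lists held few tested genes. Cell cycle exit genes had 4 of 15 higher and 4 lower, S phase genes 0 of 11 higher and 4 lower, and hedgehog genes 1 of 7 higher and 3 lower. Targets of p53 had 3 of 10 higher and 1 lower, dissociation stress genes 3 of 13 higher and 2 lower, Notch genes 1 of 5 each way, and retinoid genes 0 of 3 either way. Engrailed and isthmic genes had 1 of 5 higher and 3 lower, with En2 the 1 called.

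Whether the genotype effect in members differed from that in other cells was tested by an interaction term, with the library as a block. Against precursors, 4 of 10577 genes differed (0.0378%). Sorbs2, an adaptor of the actin cytoskeleton, had 269 and 355 CPM in members of the controls and 90.7 and 58.3 CPM in those of the CKO libraries. In precursors it had 63.4 and 85.9 CPM against 35.7 and 42.8 CPM, a smaller change, and the difference between the log2 changes was -1.22 (SE 0.24, edgeR adjusted p = 0.0218). Fst had 10.6 and 11.6 CPM against 39.8 and 32.2 CPM in members and 261 and 349 CPM against 252 and 216 CPM in precursors, a difference of 2.07 (SE 0.44, edgeR adjusted p = 0.0275). The other two genes were Mpped2 and Cacng2, the latter an auxiliary subunit of AMPA receptors. In neither class did any of the 4 genes pass the test of its own genotype effect. En2 differed by 0.06 between the classes (SE 0.34, edgeR adjusted p = 0.988). The count was 2 without control replicate 1, CKO replicate 1 or CKO replicate 2, and 18 without control replicate 2.

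Against Meis2-high neurons, 13 of 9425 genes differed (0.138%), of which 12 had the lower log2 change in members. Nrcam, an L1-family adhesion molecule, had 387 and 343 CPM in members of the controls and 280 and 183 CPM in those of the CKO libraries, while in Meis2-high neurons it had 215 and 298 CPM against 557 and 545 CPM. The difference between the 2 changes was -1.67 (SE 0.26, edgeR adjusted p = 0.00757). Neither change was called by itself, at -0.61 in members (edgeR adjusted p = 0.306) and 1.052 in Meis2-high neurons (0.242), and the change in members was 0.33 at 2000 to 6000 UMIs. Chl1, of the same family, the neurexin gene Nrxn3 and the teneurin gene Tenm2 differed by -2.36, -2.05 and -1.38.

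Nptxr, the neuronal pentraxin receptor, had 75.9 and 72.7 CPM against 17.5 and 30.3 CPM in members and 115 and 79.9 CPM against 212 and 215 CPM in Meis2-high neurons. Its difference was -2.48 (SE 0.34, edgeR adjusted p = 0.00280). The calcium channel genes Cacna1e and Cacna2d1 differed by -2.96 and -1.65, and the neuropeptide gene Sst by -2.42. Id2, an inhibitor of helix-loop-helix factors, was the single gene with the higher change in members, at 1.59. Phlda1 was higher in the CKO libraries in both classes, but more so in Meis2-high neurons, where it passed the test (log2 change 2.39, edgeR adjusted p = 0.0325). Without CKO replicate 1 the number of genes was 353, without CKO replicate 2 it was 6, and without a filter on low counts it was 44. Meis2-high neurons numbered 309 and 1500 cells in the control libraries and 286 and 201 in the CKO libraries, with median depths from 2164 to 2735 UMIs, so that of these 2 classes only the members differed in depth without overlap.

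**Figure D5:**
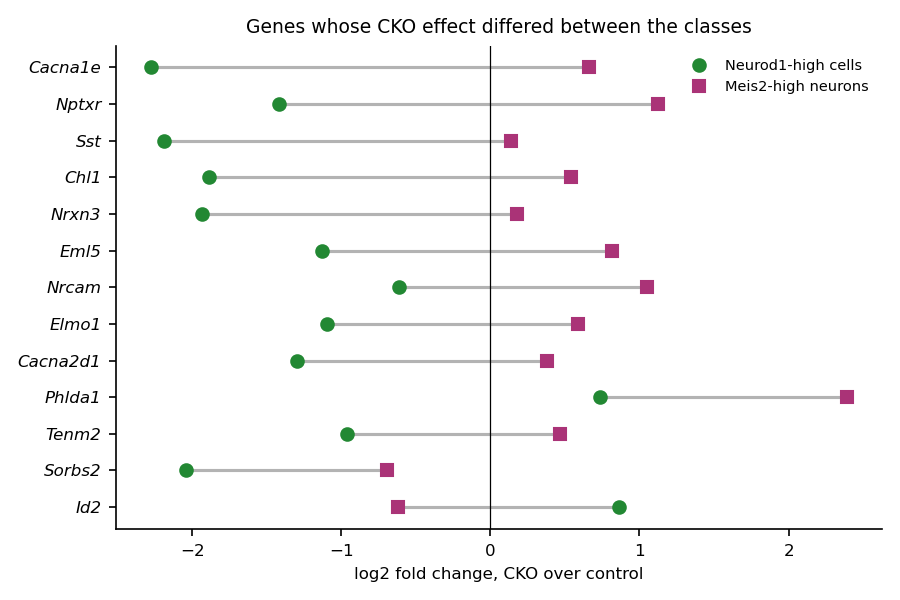
Log2 fold change of CKO over control (horizontal axis) in Neurod1-high cells (circles) and Meis2-high neurons (squares) for the 13 genes whose change differed between the classes. For 12 of the 13 genes the circle lies to the left of the square, and Id2 is the exception.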

How the data were processed

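The deposited matrices hold whole-number UMI counts per gene and barcode, written by Cell Ranger 5.0.0 per the file headers, with no normalization. Per the submitters' processing notes, the build was mm10. Gene coordinates are from GENCODE M21 (GRCm38), which held 32158 of 32285 gene IDs. Members were summed per library and tested two-sided with edgeR 4.0.16 in R 4.3.3 (TMM factors, filterByExpr, quasi-likelihood F test, Benjamini-Hochberg adjusted p under 0.05 called); SE is the log2 change over the square root of F. Interaction fits used the library as block. Shares were compared by exact permutation with scipy 1.17.1. DESeq2 1.42.0, other filters, thinning, depth windows, removal of simulated doublets, a replicate block and leaving out each library were alternatives. Doublets were otherwise kept; 5 members were among the cells with the highest doublet scores.

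The members, the rule and the gene lists were chosen with earlier results of these data known. Genes named are a list of 32, called genes (up to 8 each way), and 25 leading genes with at least 50 CPM in every library, ranked by their lowest ratio to the remaining cells. Genes outside these were named from the lists or the interaction tests. The 11 genes of the rule were not read as results between genotypes. They were not taken out of the fits, and 7761 of the 7764 genes tested lay outside the rule. In the main fit 0 rule genes were called. CPM in comparisons of cell classes carry no TMM scaling. The main fit was also run on simulated counts with a common dispersion for all genes. Those counts lack the quality differences between these libraries and do not bear on how the calls changed between settings.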

Additional observations from a re-analysis of the deposited data

Results flagged for a closer look

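The genotype effect differed between Neurod1-high cells and granule precursors for 4 genes by the edgeR interaction test. The differences in log2 change were -1.22 for Sorbs2, -1.23 for Mpped2, 1.14 for Cacng2 and 2.07 for Fst. Cacng2 stood at 114 and 108 CPM in members of the controls and 100 and 122 CPM in those of the CKO libraries, while in precursors it had 92.0 and 136 CPM against 50.2 and 52.1 CPM. Mpped2 had 176 and 137 CPM against 95.5 and 63.9 CPM in members and 36.9 and 34.1 CPM against 48.5 and 36.1 CPM in precursors.

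Against Meis2-high neurons the effect differed for 13 genes. The differences were -2.48 for Nptxr, -1.67 for Nrcam, -1.94 for Eml5, -2.42 for Sst, -2.36 for Chl1, -1.65 for Cacna2d1 and for Elmo1 alike, and -2.05 for Nrxn3. They were -2.96 for Cacna1e, 1.59 for Id2, -1.46 for Phlda1, -1.33 for Sorbs2 and -1.38 for Tenm2. Sorbs2 was the gene called against both classes. Sst had 74.4 and 58.1 CPM in members of the controls, 1.59 and 18.8 CPM in members of the CKO libraries, and 345 to 596 CPM in Meis2-high neurons of all 4 libraries. Member depth differed between genotypes and its part in these differences was not tested.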

How the results depend on the processing

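Depth limits these results: the shallowest library of members held 344007 UMIs, and groups have 2 libraries. The number of genes that changed, 2, became 125 with DESeq2, 217 without a low-count filter, 7 with members chosen after thinning, 4 without doublets, 5 with at least 5 Neurod1 UMIs and 0 of 3160 at 2000 to 6000 UMIs. Leaving out 1 library gave 0 to 301. Deviations of same-numbered libraries had a correlation of -0.144 over 7764 genes. With 2 libraries a group the crossed pairing has the mirror value, 0.144, so this cannot decide whether the numbers pair the samples. The replicate block gave 0 calls. A crossed pairing, added after seeing the data, gave 41. Intact cells also gave 2 calls, 1 of them shared.

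Against precursors 4 genes became 2 to 18 on leaving out 1 library. Against Meis2-high neurons 13 genes became 6 to 353, and 44 without the filter.

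The share difference of 0.568 points turned to -0.136 (thinned to 2000 UMIs), -0.259 (intact cells) and -1.45 (2000 to 6000 UMIs, added after seeing the data). Among granule lineage cells, another denominator, it was -15.6, and -15.9 after thinning (also added later). Leaving out 1 library gave -1.03 to 2.17.

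Of 388 values of named genes under an alternative, 321 kept their direction and side of the threshold, 6 lost the call, 16 gained one and 45 turned direction. The gained calls were 6 of 2610027F03Rik, 4 of Grin2b, 2 each of Ccnd1 and Ccnd2, and 1 each of Barhl1 (DESeq2) and Astn1. The log2 differences that turned were, at 2000 to 6000 UMIs, En1 0.039, Cdkn1b -0.28, Zic1 0.032, Meis1 0.28, Gap43 -0.10, Gng3 -0.14, Stmn2 -0.11, Cntn2 0.66, Nrcam 0.33, Unc5c 0.25, Sema6a 0.30 and Ptch1 0.36. In intact cells they were Cdkn1a -0.21, Cdkn1b -0.094, Tlx3 -0.25, Zic1 0.034, Meis1 0.18, Robo1 0.16 and Snap25 0.007. With at least 5 Neurod1 UMIs they were Cdkn1a -0.17, Tlx3 -0.20, Cntn2 0.13 and Snap25 0.38. With members chosen after thinning they were Btg2 0.096, Nhlh1 0.094 and Snap25 0.36, and without a filter Nhlh1 0.054, Zic1 0.043 and Snap25 0.031. DESeq2 turned Zic1 to 0.023, and doublet removal turned Nhlh1 to 0.001. Leaving out 1 library moved Cdkn1a over -0.022 to 0.49, Cdkn1b over -0.15 to 0.22, Tlx3 over -0.40 to 0.68, Nhlh1 over -0.18 to 0.21, Zic1 over -0.28 to 0.21, Etv1 over -0.56 to 0.53, Cntn2 over -0.31 to 0.22, Sema6a over -0.47 to 0.04 and Snap25 over -0.15 to 0.26. The cause was not tested.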
